A study of Saccharomyces cerevisiae with 6 samples.

Results

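The 80 genes described here encode proteins of the large subunit of the cytosolic ribosome of budding yeast, Saccharomyces cerevisiae. They are the genes whose symbol in the platform annotation is RPL with a number and an optional A or B, or RPP with 0, 1 or 2 and an optional A or B. The pattern matched 113 of 7744 rows of the value table and 81 of the 5711 named genes. One of the 81, RPP1 (YHR062C), encodes a subunit of the nuclear RNase P and is no ribosomal protein, so it is given apart from the other 80.

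The large subunit joins amino acids into protein. Its ribosomal RNA forms the catalytic centre, and the proteins described here fold and brace that RNA, line the tunnel through which the new chain leaves, touch the small subunit, or form the stalk that recruits elongation factors. In yeast most of them are encoded by a pair of near-identical genes, named A and B, left by an ancient duplication of the genome. Their promoters are driven together by Rap1, Fhl1, Ifh1 and Sfp1, and the TORC1 and protein kinase A pathways tie that activity to the supply of nutrients.

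Total RNA of 3 strains was compared on 6 dual-colour arrays: S288C wt, ssy1KO, which by its name lacks the amino acid sensor gene SSY1, and ssy1T9, which carries an allele that the series title presents as natural. S288C, a common laboratory background, is given for all 3 strains in the series' design text. Every strain pair has 2 arrays that differ in which strain carries which dye. They are called KO/wt, T9/wt and T9/KO, with array 1 having wt (in T9/KO, ssy1T9) in Cy5. The labels do not give the growth medium or say whether the arrays used separate cultures. The p-values therefore reflect scatter among arrays, some or all of it possibly technical.

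Each value is a log ratio, taken to be on the log2 scale, minus the median gene of its array. Array values are turned to read mutant over wt (for T9/KO, ssy1KO over ssy1T9), with array 1 before array 2. The direction of the deposited ratio is likely rather than stated: it was taken so that SSY1, the gene removed in ssy1KO, is the lower in that strain. So turned, SSY1 gave -1.65 and -1.1 on KO/wt, 0.22 and 0.36 on T9/wt, and -1.86 and -1.87 on T9/KO, low wherever ssy1KO was hybridised. A gene is called higher or lower when its Benjamini-Hochberg adjusted p, over all 5711 genes in a limma fit to all 6 arrays, is under 0.05. A ratio here is relative to the typical gene, and less ribosomal messenger per cell cannot be told apart from more of the other messengers.

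In ssy1KO, 57 of the 80 genes fell against wt and 0 rose; among all genes 10.5% were called lower and 13.8% higher. In ssy1T9, 59 fell and 0 rose, against 12.1% lower and 14.1% higher among all genes. The changes were small and had little range: the median was -0.30 in ssy1KO, 1.23-fold lower, and -0.34 in ssy1T9, 1.27-fold lower, while the median over all genes was 0.00 in both. Single genes ran from -0.69 to -0.01 in ssy1KO and from -1.0 to -0.02 in ssy1T9, so all 80 fitted values lay below 0 in each mutant, called or not. The median SE was 0.09 (limma, 6 arrays), and the 95% confidence interval typically reached 0.18, or 1.13-fold, above and below the value.

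Few of the falls exceeded a small fold by test. In a limma test against a change of 1.2-fold, 2 of the 80 passed as lower in ssy1KO and 8 in ssy1T9 (1.4% and 1.84% of all genes). With the deposited values left uncentred, all genes together had a median of 0.16 in ssy1KO and 0.17 in ssy1T9. On that scale the large subunit genes kept medians below 0, at -0.14 and -0.17, with 13 and 21 called lower and 0 called higher. The same setting called 2.71% and 3.08% of all genes lower and 31.6% and 32.2% higher.

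**Figure D1:**
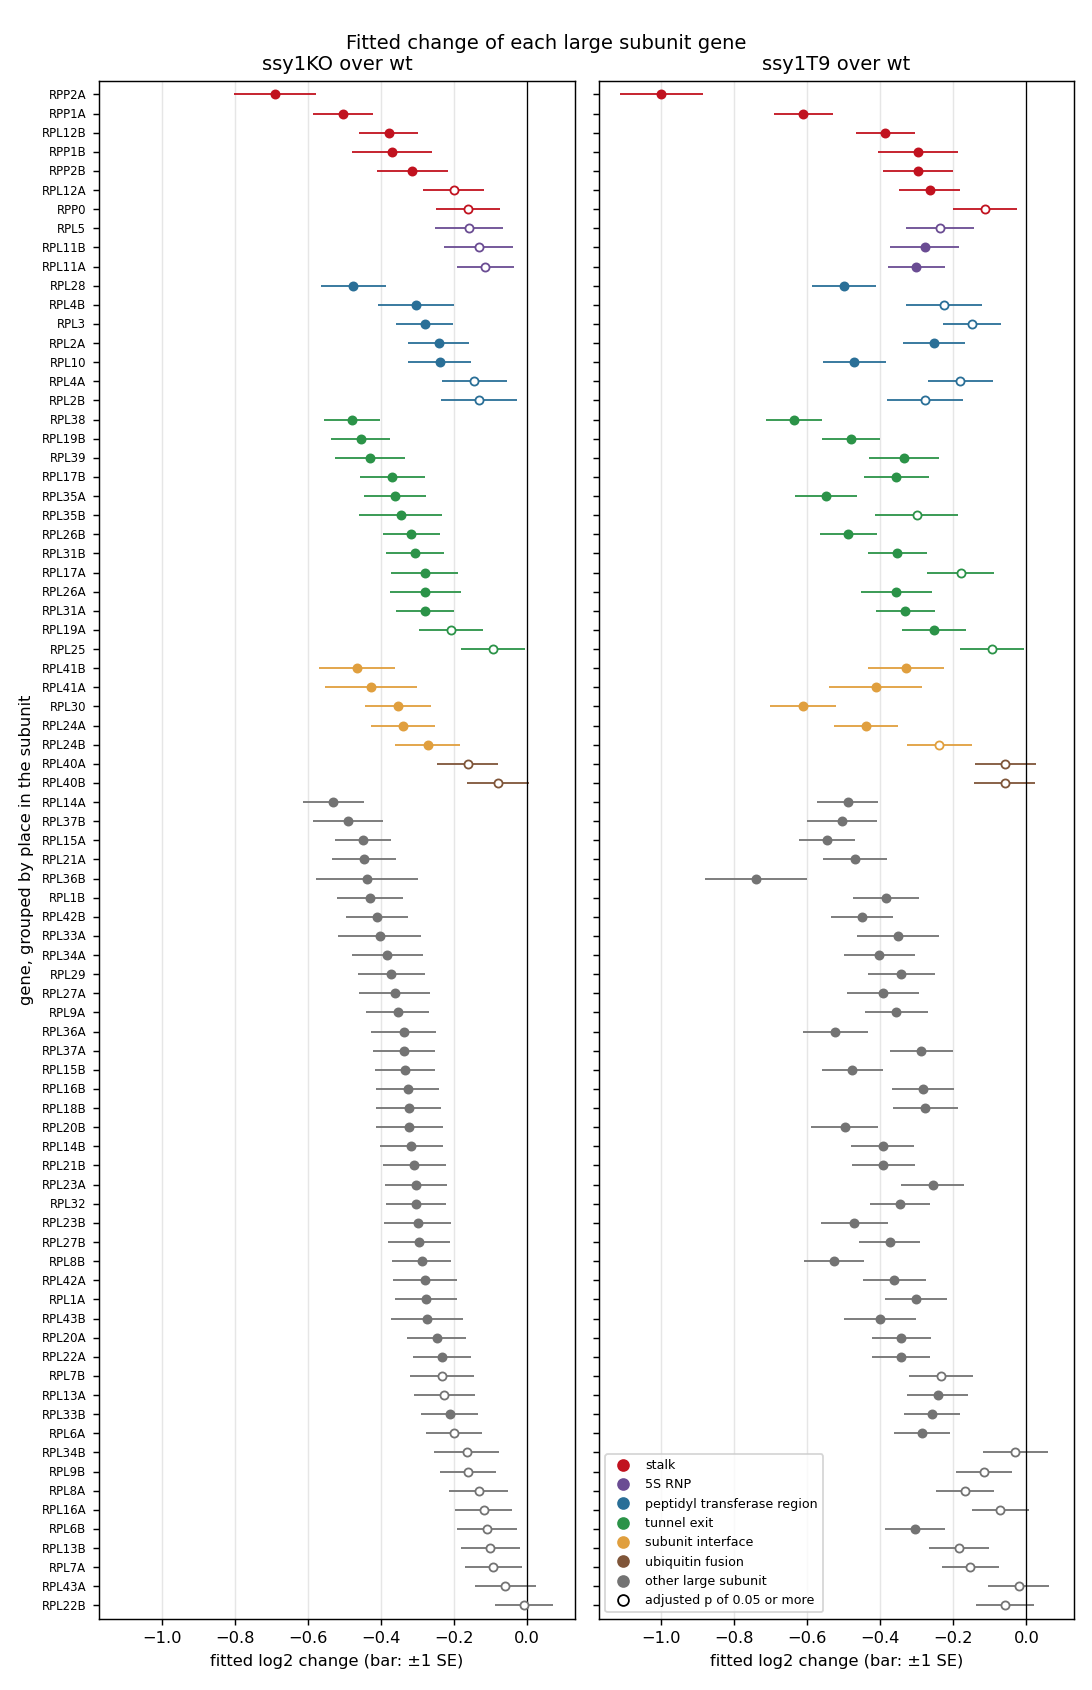
Fitted log2 change of each of the 80 large subunit genes in ssy1KO over wt (left) and ssy1T9 over wt (right), with bars of 1 SE to either side. Colours give the place in the subunit, and open points did not pass at an adjusted p of 0.05. All points lie below 0, RPP2A is lowest in both panels at -0.69 and -1.0, RPL22B lies closest to 0 in ssy1KO and RPL43A in ssy1T9.

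The arrays with wt did not show the falls equally. On KO/wt array 1, 79 of 80 genes lay lower in the mutant, with a median of -0.51, and on KO/wt array 2 only 42 did, with a median of -0.04. On the T9/wt arrays 80 and 69 lay lower, with medians of -0.46 and -0.32. Among all genes between 48.5% and 48.7% lay lower on these 4 arrays. Both KO/wt arrays were lower for 41 of the 80 genes, against 27.8% of all genes. Both T9/wt arrays were lower for 69, against 29.5% of all genes.

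A dye difference moved with these readings. As Cy5 over Cy3, the median of the large subunit genes lay above 0 on both T9/KO arrays. It was 0.22 and 0.22 although the strains were exchanged between the dyes. The dye intercept of the fit, the part of the ratio that stays with Cy5 whichever strain it labels, had a median of 0.20 over these genes and of 0.01 over all genes. It was above 0 for 71 of the 80 (88.8%, against 51.8% of all genes), and 3.73% of all genes had an intercept above the large subunit median. The 55 small subunit genes had a like intercept, with a median of 0.22. An intercept of this size adds to a fall on the arrays with wt in Cy5 and takes from it on the arrays with the mutant in Cy5.

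Each strain pair has both dye orientations, so a dye effect that adds equally to both arrays cancels from the fitted changes. Without a dye intercept in the model the medians were the same, -0.30 and -0.34, and 10 and 23 of the 80 were called lower (5.01% and 6.01% of all genes). Across the 80 genes, which share arrays and strains, the intercept and the fitted change had a Pearson r of -0.42 in ssy1KO and -0.34 in ssy1T9, against 0.04 and 0.01 across all 5711 genes.

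**Figure D2:**
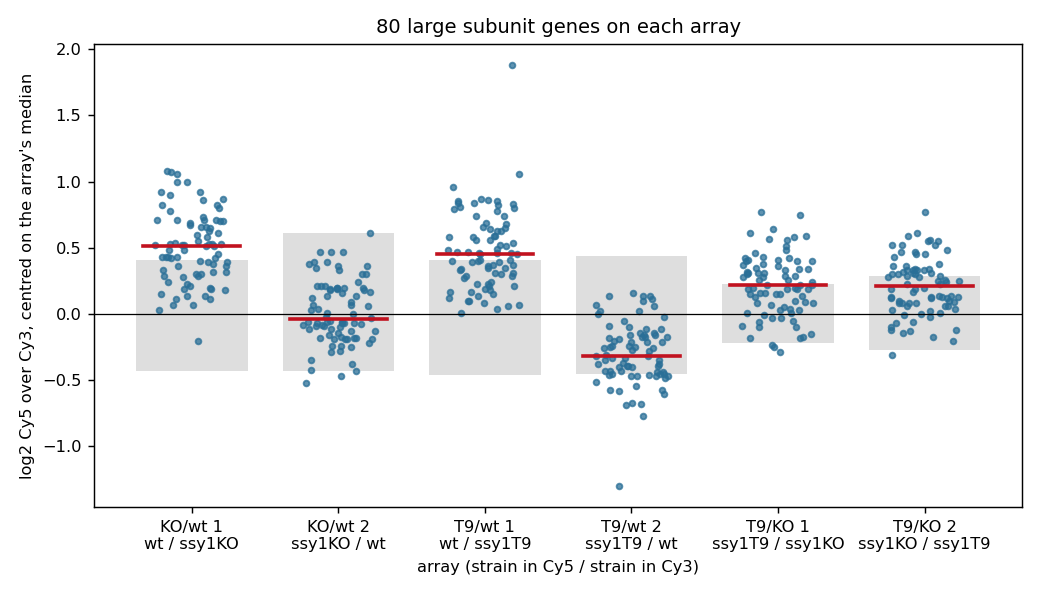
Centred log2 Cy5 over Cy3 of the 80 large subunit genes (points) on each array, with their median (red line) and the 5th to 95th percentile of all genes (grey). Medians are 0.51 and 0.46 with wt in Cy5, -0.04 and -0.32 with a mutant in Cy5, and 0.22 on both arrays of the mutants.

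Single arrays decided much of the count in ssy1KO. Without KO/wt array 1, 14 of the 80 genes were called lower there (4.47% of all genes), and without T9/KO array 1, 29 were (7.11%). From the KO/wt arrays alone 17 were called (5.69%), with a median of -0.24. In ssy1T9, 24 were called without T9/wt array 2 (7.55%), with a median of -0.23, while 50 were called from the T9/wt arrays alone (7.37%). The median stayed below 0 with every array left out, between -0.36 and -0.24 in ssy1KO and between -0.38 and -0.23 in ssy1T9.

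The lateral stalk held the lowest gene of all. Rpp0 anchors the stalk to the ribosome, the acidic proteins P1 and P2 attach to it as dimers and draw in elongation factors, and Rpl12 lies with Rpp0 at the base. Of the 7 stalk genes 5 fell in ssy1KO (median -0.37) and 6 in ssy1T9 (median -0.30). Beside this and each later role group stand the 10.5% and 12.1% of all genes called lower. RPP2A gave -1.07 and -0.17 on KO/wt, -0.84 and -1.30 on T9/wt, and 0.10 and 0.38 on T9/KO. All 4 readings against wt were negative, and on both T9/KO arrays ssy1KO lay above ssy1T9. RPP2A (YOL039W), encoding P2 alpha, was 1.61-fold lower in ssy1KO (log2 -0.69, SE 0.11, limma adjusted p = 5.42e-05) and 2-fold lower in ssy1T9 (log2 -1.0, adjusted p = 2.08e-07). Without KO/wt array 1 it lay at -0.52 in ssy1KO and did not pass, nor did it with robust variance moderation. The effects of the alleles on it differed by 0.31 (95% confidence interval 0.08 to 0.54), which did not pass (adjusted p = 0.685).

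RPP1A (YDL081C), encoding P1 alpha, was the next lowest stalk gene. RPP1A gave -0.92 and -0.13 on KO/wt, -0.80 and -0.38 on T9/wt, and -0.29 and 0.55 on T9/KO. Its 4 readings against wt were all negative, and it fell by 0.50 in ssy1KO and by 0.61 in ssy1T9 (SE 0.08, adjusted p = 4.39e-05 and 2.68e-06). Both calls held with each array left out in turn, and without a dye intercept the value in ssy1KO was the same, -0.50, with an adjusted p of 0.0569.

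The genes of the other P1 and P2 proteins had values closer to 0, though the difference between RPP1A and RPP1B did not pass in either mutant (A minus B -0.14 and -0.32, limma adjusted p over pairs = 0.58 and 0.11). RPP1B gave -0.48 and 0.12 on KO/wt, -0.37 and -0.60 on T9/wt, and -0.56 and 0.04 on T9/KO. KO/wt array 2 was the only one of the 4 arrays with wt on which RPP1B, encoding P1 beta, did not lie lower. Its fitted values were -0.37 in ssy1KO and -0.30 in ssy1T9 (adjusted p = 0.0155 and 0.0479). In ssy1KO the call was lost without KO/wt array 1 (-0.40), T9/KO array 1 (-0.26) or T9/wt array 1 or 2 (-0.40 and -0.21). In ssy1T9 it was lost without KO/wt array 1 (-0.31) or T9/wt array 1 (-0.36), and without T9/wt array 2 the value was 0.01.

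RPP2B, encoding P2 beta, which pairs with P1 alpha, behaved much the same. RPP2B gave -0.61 and 0.30 on KO/wt, -0.59 and -0.32 on T9/wt, and -0.43 and 0.08 on T9/KO. It was positive on KO/wt array 2 and negative on the other 3 arrays with wt. The fit gave -0.31 in ssy1KO and -0.30 in ssy1T9 (adjusted p = 0.0195 and 0.0254). Its call was lost in ssy1KO without KO/wt array 1, T9/KO array 1, T9/wt array 1 or T9/wt array 2, at -0.30, -0.27, -0.31 and -0.21. In ssy1T9 it was lost without KO/wt array 1, T9/wt array 1 or T9/wt array 2, at -0.29, -0.29 and -0.09.

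RPP0 did not pass in either mutant. RPP0 gave -0.52 and 0.36 on KO/wt, -0.37 and -0.02 on T9/wt, and -0.29 and 0.03 on T9/KO. The KO/wt readings had opposite signs, and the fitted values were -0.16 (95% confidence interval -0.34 to 0.02) and -0.11 (-0.30 to 0.07). Without KO/wt array 2 it passed in both, at -0.34 and -0.20. The base genes RPL12A and RPL12B lay at -0.20 and -0.38 in ssy1KO and at -0.27 and -0.39 in ssy1T9, where RPL12A in ssy1KO did not pass (adjusted p = 0.0868).

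**Figure D3:**
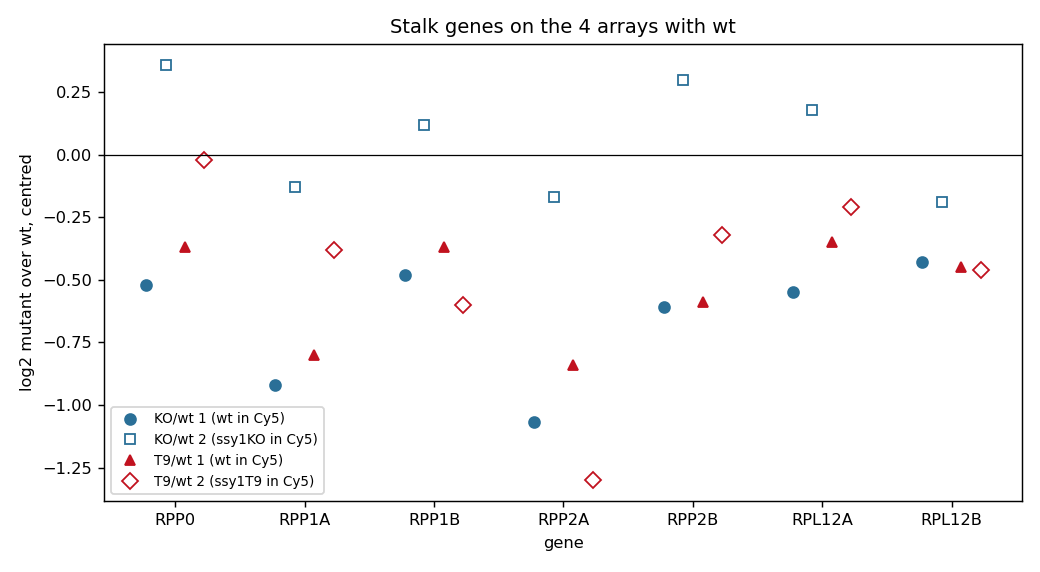
Centred log2 ratio, mutant over wt, of the 7 stalk genes on the 4 arrays with wt. Filled symbols are arrays with wt in Cy5 and open symbols arrays with the mutant in Cy5. RPP2A reaches -1.30 on T9/wt array 2 and -1.07 on KO/wt array 1, and on KO/wt array 2 the genes RPP0, RPP1B, RPP2B and RPL12A lie above 0.

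Rpl5 and Rpl11 carry the 5S ribosomal RNA into the subunit. None of their 3 genes was called in ssy1KO and 2 of 3 fell in ssy1T9, RPL11A to -0.30 and RPL11B to -0.28 (adjusted p = 0.00522 and 0.0315). RPL5 gave -0.45 and 0.07 on KO/wt, -0.06 and -0.35 on T9/wt, and -0.09 and 0.31 on T9/KO. RPL5 was positive on KO/wt array 2 and negative on the other 3 arrays with wt, and its fitted values, -0.16 and -0.24, did not pass (adjusted p = 0.231 and 0.0623). Without T9/wt array 1 it passed in ssy1T9, at -0.42. In ssy1KO, RPL11A and RPL11B lay at -0.11 and -0.13.

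Among the 7 genes whose proteins reach toward the peptidyl transferase centre, 5 fell in ssy1KO and 3 in ssy1T9, with medians of -0.24 and -0.25. RPL28 gave -0.66 and -0.11 on KO/wt, -0.64 and -0.54 on T9/wt, and -0.41 and 0.28 on T9/KO. RPL28, also known as the cycloheximide resistance gene, was negative on all 4 arrays with wt, and fell by 0.47 in ssy1KO and by 0.50 in ssy1T9 (SE 0.09, adjusted p = 0.000269 and 0.000134). Both calls held with each array left out.

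RPL10 encodes the protein whose late loading lets the export adaptor Nmd3 leave the new subunit. RPL10 gave -0.15 and -0.42 on KO/wt, -0.40 and -0.45 on T9/wt, and 0.09 and 0.47 on T9/KO. All 4 readings against wt were negative, and on both T9/KO arrays ssy1KO lay above ssy1T9. The fall was -0.47 in ssy1T9 (adjusted p = 0.000214) and -0.24 in ssy1KO (adjusted p = 0.0473). The latter call was lost without KO/wt array 1 (-0.30) or 2 (-0.11), T9/KO array 1 (-0.19) or T9/wt array 1 (-0.27).

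RPL3 encodes a protein that reaches from the surface to the catalytic centre. RPL3 gave -0.42 and -0.18 on KO/wt, -0.15 and -0.11 on T9/wt, and -0.30 and 0.08 on T9/KO. Its readings against wt were all negative but small. It fell in ssy1KO (-0.28, adjusted p = 0.0108) and did not pass in ssy1T9 (-0.15, adjusted p = 0.174), and the difference between the mutants, -0.13, did not pass either (95% confidence interval -0.29 to 0.03). The call in ssy1KO was lost without KO/wt array 1 (-0.26) or 2 (-0.27) or T9/KO array 1 (-0.26).

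Proteins at or near the exit of the peptide tunnel meet the chaperones and targeting factors that act on new chains. Of their 13 genes 11 fell in ssy1KO and 10 in ssy1T9, with medians of -0.32 and -0.35. RPL38 gave -0.80 and -0.19 on KO/wt, -0.85 and -0.39 on T9/wt, and -0.08 and 0.43 on T9/KO. RPL38 (YLR325C) was negative on every array with wt. It fell by 0.48 in ssy1KO and by 0.64 in ssy1T9 (SE 0.08, adjusted p = 4.28e-05 and 6.31e-07). Both calls held under all 13 alternatives that tested against no change. In the test against a 1.2-fold change no tunnel exit gene, RPL38 included, passed in ssy1KO.

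RPL39 encodes a small protein that lines the tunnel. RPL39 gave -0.54 and -0.05 on KO/wt, -0.47 and -0.47 on T9/wt, and -0.58 and 0.12 on T9/KO. All 4 values against wt were negative. It fell to -0.43 in ssy1KO and -0.34 in ssy1T9 (adjusted p = 0.00167 and 0.011). In ssy1T9 the call was lost without KO/wt array 1 (-0.36) or T9/wt array 1 or 2 (-0.38 and -0.11).

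RPL25 encodes the docking site of the signal recognition particle and of the nascent chain associated complex, and it stood at the other end of the group. RPL25 gave -0.28 and 0.06 on KO/wt, -0.21 and 0.06 on T9/wt, and 0.18 and -0.14 on T9/KO. On each pair of arrays with wt the signs were opposite. The fitted values were -0.09 (95% confidence interval -0.27 to 0.09) and -0.09 (-0.27 to 0.09), and neither passed.

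The 5 genes of proteins at the interface with the small subunit all fell in ssy1KO (median -0.35), and 4 of 5 fell in ssy1T9 (median -0.41). Rpl30 also binds its own transcript and holds back its splicing. RPL30 gave -0.71 and -0.03 on KO/wt, -0.68 and -0.51 on T9/wt, and -0.22 and 0.77 on T9/KO. RPL30 was negative on all 4 arrays with wt, close to 0 only on KO/wt array 2, and its value on T9/KO array 2 was the highest of the 80 genes there. It fell to -0.61 in ssy1T9 (adjusted p = 1.39e-05) and to -0.35 in ssy1KO (adjusted p = 0.00566). In ssy1KO the call was lost without KO/wt array 1 (-0.32) or 2 (-0.36).

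RPL41A and RPL41B encode the smallest ribosomal protein. RPL41A gave -0.92 and 0.39 on KO/wt, -0.47 and -0.68 on T9/wt, and -0.41 and 0.06 on T9/KO. RPL41B gave -0.90 and 0.33 on KO/wt, -0.74 and -0.28 on T9/wt, and -0.75 and 0.12 on T9/KO. Both genes lay above 0 on KO/wt array 2 and below 0 on the other 3 arrays with wt. They fell to -0.43 and -0.47 in ssy1KO (adjusted p = 0.0156 and 0.00162) and to -0.41 and -0.33 in ssy1T9 (adjusted p = 0.0178 and 0.0195). Without KO/wt array 1 neither call held in ssy1KO (-0.27 and -0.46), and RPL41A also lost it without T9/KO array 1 (-0.38). In ssy1T9 neither held without KO/wt array 1 (-0.34 and -0.33), T9/wt array 1 (-0.55 and -0.34) or T9/wt array 2 (-0.06 and -0.08).

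RPL40A and RPL40B encode a ribosomal protein made as a fusion with ubiquitin, from which both are released. They were the only role group without a call in either mutant. RPL40A gave -0.30 and -0.07 on KO/wt, -0.21 and 0.14 on T9/wt, and 0.01 and -0.17 on T9/KO. RPL40B gave -0.19 and -0.06 on KO/wt, -0.14 and 0.11 on T9/wt, and 0.18 and -0.13 on T9/KO. Each was negative on the KO/wt arrays and on T9/wt array 1 and positive on T9/wt array 2. The fitted values were -0.16 and -0.08 in ssy1KO and -0.06 and -0.06 in ssy1T9, with 95% confidence intervals that reach down to -0.33 and -0.26, and to -0.23 and -0.24. Their dye intercepts, 0.07 and 0.01, were also below the median of the 80 genes.

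The remaining 43 genes were not placed in a role group. Of these 31 fell in ssy1KO and 34 in ssy1T9, with medians of -0.30 and -0.35. RPL14A was the second lowest of all 80 in ssy1KO. RPL14A gave -1.08 and 0.16 on KO/wt, -0.96 and -0.16 on T9/wt, and -0.51 and 0.29 on T9/KO. Its KO/wt readings had opposite signs, with a dye intercept of 0.47, and the fit gave -0.53 in ssy1KO and -0.49 in ssy1T9 (adjusted p = 3.82e-05 and 9.77e-05). Both calls held with each array left out but were lost, at the same values, without a dye intercept.

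RPL37B had the largest dye intercept of the 80, 0.53. RPL37B gave -1.06 and 0.38 on KO/wt, -1.06 and -0.25 on T9/wt, and -0.61 and 0.34 on T9/KO. The KO/wt readings again had opposite signs and the T9/wt readings one sign. It fell to -0.49 in ssy1KO and -0.51 in ssy1T9 (adjusted p = 0.00048 and 0.000313). The former call was lost without KO/wt array 1 (-0.47) and from the KO/wt arrays alone. Both calls were lost without a dye intercept.

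RPL36B ranked second lowest in ssy1T9, with 1 reading far from the rest. RPL36B gave -0.43 and -0.19 on KO/wt, -1.88 and 0.14 on T9/wt, and -0.13 and 0.48 on T9/KO. T9/wt array 1 lies far below the other 3 arrays with wt, and T9/wt array 2 is positive. The fit gave -0.74 with an SE of 0.14, against a median SE of 0.09 over the 80 genes (adjusted p = 0.000289), and -0.30 without T9/wt array 1, where it did not pass. In ssy1KO it lay at -0.44 (adjusted p = 0.0235) and lost its call without KO/wt array 2 (-0.28), T9/KO array 1 (-0.45) or T9/wt array 1 (-0.22).

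Rpl22 is a large subunit protein that yeast can grow without. The difference between its A and B genes did not pass in either mutant (A minus B -0.23 and -0.29, limma adjusted p over pairs = 0.466 and 0.117). RPL22A gave -0.53 and -0.08 on KO/wt, -0.56 and 0.02 on T9/wt, and -0.15 and 0.52 on T9/KO. RPL22B gave 0.20 and -0.10 on KO/wt, -0.07 and -0.16 on T9/wt, and 0.06 and -0.07 on T9/KO. RPL22A was below 0 on 3 of 4 arrays with wt, and RPL22B was above 0 on KO/wt array 1, the only one of the 80 genes to be so. RPL22A fell to -0.23 in ssy1KO and -0.34 in ssy1T9 (adjusted p = 0.0365 and 0.00234). It lost the former call without KO/wt array 1 (-0.22) or 2 (-0.14), T9/KO array 1 (-0.24) or T9/wt array 1 (-0.25). Both calls were lost with no centring and without a dye intercept, and the call in ssy1T9 also from the T9/wt arrays alone. RPL22B lay at -0.01 and -0.06 and passed in neither.

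RPL43A, RPL7A and RPL34B were also among the 5 values closest to 0 in one mutant or both. RPL43A gave -0.20 and -0.02 on KO/wt, -0.08 and 0.14 on T9/wt, and 0.15 and -0.12 on T9/KO. RPL7A gave -0.30 and 0.04 on KO/wt, -0.18 and -0.05 on T9/wt, and -0.03 and 0.23 on T9/KO. RPL34B gave -0.33 and 0.01 on KO/wt, -0.23 and 0.16 on T9/wt, and 0.03 and -0.31 on T9/KO. None of the 3 was above 0 on an array with wt in Cy5. Their fitted values were -0.06, -0.09 and -0.17 in ssy1KO and -0.02, -0.15 and -0.03 in ssy1T9, and none passed.

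RPP1, the RNase P gene that shares the symbol pattern, also fell. RPP1 gave -0.53 and -0.43 on KO/wt, -0.37 and -0.27 on T9/wt, and 0.15 and 0.13 on T9/KO. All 4 readings against wt were negative, its dye intercept was only 0.03, and the fit gave -0.38 in ssy1KO and -0.42 in ssy1T9 (SE 0.08, adjusted p = 0.00125 and 0.000411).

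The A and B genes of each pair were compared within each array. The RPP1 and RPP2 pairs encode distinct alpha and beta proteins. Of the 34 pairs with both genes measured, both fell in 19, only 1 of the pair in 10 and neither in 5 in ssy1KO; in ssy1T9 the counts were 20, 11 and 3. A call for one gene and not for the other does not show that they differ, so the difference of A minus B was tested by limma over all 86 pairs of symbols in the table that differ only in a last A or B. In ssy1KO no pair of large subunit genes passed and 1 of 34 had an unadjusted p under 0.05, against 2.33% and 14% of the 86 pairs. In ssy1T9 1 of 34 passed and 6 had an unadjusted p under 0.05, against 15.1% and 33.7% of the 86 pairs. The 86 include the 34 themselves, and 26 are open reading frames known by systematic names and paired by name alone. Their shares are therefore no measure of other paralogs. With the adjustment over only the 60 pairs of standard gene names, 0 large subunit pairs passed in ssy1KO and 1 in ssy1T9.

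The pair that passed in ssy1T9 was RPP2A and RPP2B, the genes of the distinct proteins P2 alpha and P2 beta. RPP2A minus RPP2B came to -0.46 and -0.47 on KO/wt and to -0.25 and -0.98 on T9/wt, so RPP2A lay lower on each array with wt. The fitted difference was -0.70 in ssy1T9 (SE 0.14, adjusted p = 0.000924) and -0.38 in ssy1KO (adjusted p = 0.223). With each array left out it passed in ssy1T9, and from the T9/wt arrays alone it was -0.62 and did not pass (adjusted p = 0.0934). The change in that difference between the mutants was 0.33 (95% confidence interval 0.05 to 0.60), which did not pass over the 86 pairs (adjusted p = 0.484).

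With robust variance moderation 4 of 34 pairs passed in ssy1T9: RPL8A and RPL8B, RPL34A and RPL34B, and RPL43A and RPL43B beside the RPP2 pair. In the plain fit these 3 pairs differed by 0.36, -0.37 and 0.38 (adjusted p = 0.0608, 0.071 and 0.0713). The RPL34 and RPL43 pairs passed without KO/wt array 2 or without T9/KO array 1, when 3 pairs passed. Without T9/wt array 1 the RPL34 pair passed beside the RPP2 pair, and without T9/wt array 2 the RPP1A and RPP1B pair and the RPL36 pair did.

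Changes lay about as far apart within pairs as between other genes. The median absolute difference within a pair was 0.13 in ssy1KO and 0.13 in ssy1T9, and between all other 2 of the 80 genes it was 0.12 and 0.15. The median SE of an A minus B difference was also 0.13 in each mutant, about as large as the distance itself. Across the 34 pairs, A and B values had a Pearson r of 0.27 and a Spearman rho of 0.31 in ssy1KO, and of 0.12 and 0.10 in ssy1T9. With error of that size, neither the distances nor r and rho show whether paralogs change alike. Neither letter was the lower one throughout: A was lower in 17 of 34 pairs in ssy1KO and in 15 in ssy1T9. Dye intercepts were as loosely related within pairs (r 0.19, median absolute difference 0.16). The pairs share arrays and strains, and where paralogs are near-identical a spot may bind transcripts of both.

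**Figure D4:**
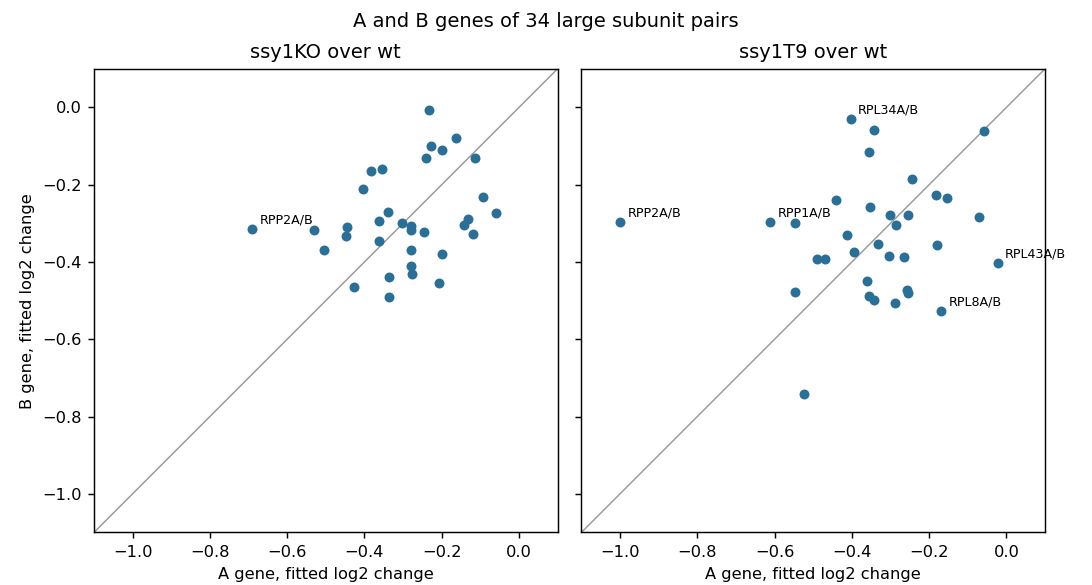
Fitted log2 change of the A gene (horizontal) and the B gene (vertical) for the 34 pairs, in ssy1KO over wt (left) and ssy1T9 over wt (right), with the line of equal change. Pairs more than 0.3 apart are named: RPP2 in ssy1KO, and RPP2, RPP1, RPL34, RPL43 and RPL8 in ssy1T9.

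Spots of a single gene gave a measure of the scatter between spots, which is only part of the error behind these differences. All spots of an array share its RNA samples, so error between arrays or cultures is not measured by them. RPL32, a large subunit gene, has 33 rows in the table, 1 of 12 genes with as many. Its spots had an SD of 0.30 on KO/wt array 1 and between 0.14 and 0.22 on the other arrays, while the 80 genes had SDs between 0.22 and 0.30 on the 6 arrays. Fitted spot by spot, RPL32 lay below 0 at all 33 spots in both mutants, from -0.50 to -0.17 in ssy1KO and from -0.59 to -0.25 in ssy1T9. The SD of these fits over the spots was 0.10 in ssy1KO and 0.08 in ssy1T9, and the SD over the 80 genes was 0.13 and 0.17. Over the 12 genes with 33 rows the SD of the spot fits had a median of 0.10 in ssy1KO (0.06 to 0.22) and of 0.09 in ssy1T9 (0.05 to 0.23).

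The dye intercept also varied over spots of RPL32, from -0.20 to 0.49 with an SD of 0.15, against 0.16 over the 80 genes. That SD was the highest of the 12 genes with 33 rows, whose median was 0.09. The maximum of 0.49 came from the last of the 33 spots, which lies apart from the rest in row order. The other spots had a mean intercept of 0.08. Over the 33 spots, which are the same gene on the same arrays, intercept and fitted change had a Pearson r of -0.48 in ssy1KO and -0.38 in ssy1T9, values like those across the 80 genes. Averaged over its spots, RPL32 lay at -0.30 in ssy1KO and -0.35 in ssy1T9 (SE 0.08, adjusted p = 0.0083 and 0.00276).

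**Figure D5:**
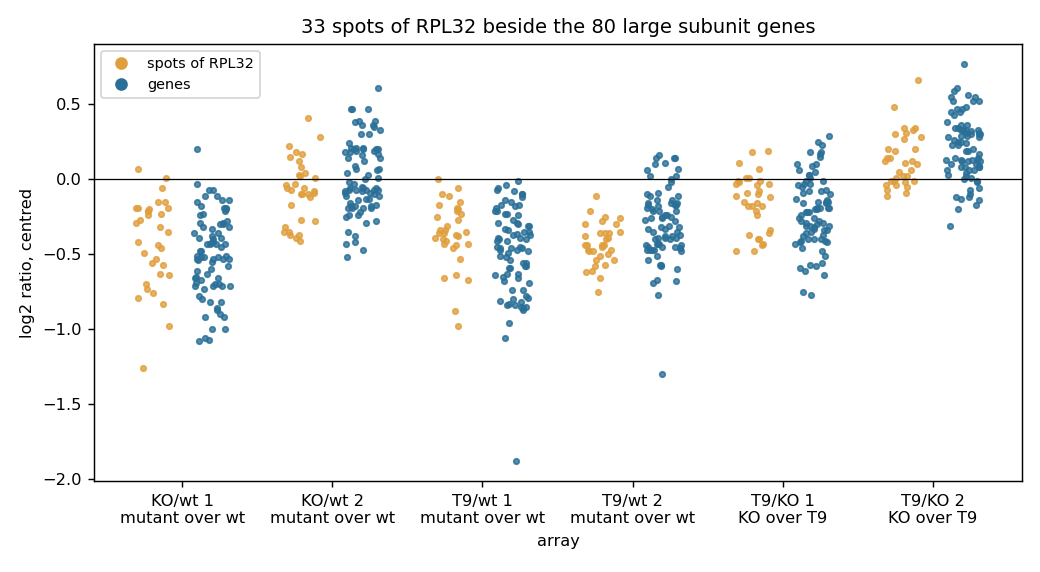
Centred log2 ratios of the 33 spots of RPL32 (orange) and of the 80 large subunit genes (blue) on each array, as mutant over wt, or ssy1KO over ssy1T9 for T9/KO. The SD of the spots is above that of the genes on KO/wt array 1 (0.30 against 0.27) and below it on the other 5 arrays, down to 0.14 against 0.24 on T9/wt array 2.

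Between the mutants no large subunit gene passed (0.298% of all genes did). An unadjusted p under 0.05 was seen for 10 of 80 genes (12.5%, against 5.43% of all genes), and in all 10 the value was higher in ssy1KO: RPL10, RPL11A, RPL26B, RPL30, RPL35A, RPL36A, RPL36B, RPL6B, RPL8B and RPP2A. The largest of these differences were RPP2A at 0.31, RPL36B at 0.30 and RPL30 at 0.26 (adjusted p = 0.685, 0.875 and 0.655). Over the 80 genes the median was 0.04, with 54 values above 0 and 26 below. RPL36B passed without T9/wt array 2, the array on which it lay above 0, and no gene passed with any other array left out. The 95% confidence interval of the difference reached at most 0.29 to either side of its value for any of the 80 genes.

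The 55 small subunit genes gave values close to those of the large subunit. Of these 41 fell in ssy1KO and 47 in ssy1T9, against 10.5% and 12.1% of all genes. Of the 55, 0 were called higher, and the medians were -0.32 and -0.38. The lowest were RPS11B (-0.57) and RPS4B (-0.48) in ssy1KO and RPS11B (-0.60) and RPS25A (-0.59) in ssy1T9. The highest were RPS7B and RPS0B in ssy1KO (-0.05 and -0.01) and RPS22B and RPS7B in ssy1T9 (-0.01 and 0.04), none of them called.

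Genes that build the large subunit or act on it were counted beside it. Among all genes 10.5% were called lower in ssy1KO and 12.1% in ssy1T9. Of 43 measured assembly factor genes of the large subunit, 21 fell in ssy1KO and 24 in ssy1T9, 0 rose, and the medians were -0.24 and -0.25. RPF2, whose protein helps to bring in the 5S RNA complex, fell to -0.64 and -0.54 (adjusted p = 2.11e-06 and 2.57e-05), and TIF6, which keeps the subunits apart until the new one is ready, fell to -0.56 in ssy1T9 (adjusted p = 1.06e-05). RPF1 lay at -0.53 in ssy1KO and 0.38 in ssy1T9 with an SE of 0.21, and passed in neither. RPF1 gave -0.16 and -0.04 on KO/wt, -0.22 and 0.12 on T9/wt, and -2.55 and -0.15 on T9/KO. Its value on T9/KO array 1, an array without wt, lies far below the rest, and the arrays with wt do not show these shifts. The others at the upper end, not called, were RSA3 and JJJ1 in ssy1KO (0.01 and 0.03) and JJJ1 in ssy1T9 (0.11). Of 5 genes for chaperones of single large subunit proteins, 2 fell in both mutants: ACL4, for Rpl4 (-0.32 and -0.39), and SYO1, for Rpl5 and Rpl11 (-0.28 and -0.28). SQT1 lay at -0.16 and -0.07 and BCP1 at 0.03 and -0.05, not called. Of 11 elongation factor genes 6 fell in each mutant, with medians of -0.23 in both, including TEF4 (-0.33 and -0.36), with TEF2 lowest in ssy1KO (-0.37) and EFB1 in ssy1T9 (-0.36). HEF3 and EFT2 were highest and not called, at -0.03 and 0.04 in ssy1KO and 0.06 and 0.06 in ssy1T9.

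Regulators were counted in the same way. The list holds 18 genes for transcription factors, kinases and other factors linked to the control of ribosomal protein or ribosome biogenesis genes. Of these 1 fell in each mutant (5.56%, against 10.5% and 12.1% of all genes), 0 rose, and the medians were -0.02 and 0.03. The one that fell was TOD6, encoding a repressor of ribosome biogenesis genes, to -0.32 in ssy1KO and -0.37 in ssy1T9 (adjusted p = 0.00576 and 0.00146). UTP22 came next at -0.14 and -0.205, and SFP1 had the same value in ssy1T9 (-0.06 in ssy1KO). Neither was called. LST8 and TOR2, encoding TORC1 and TORC2 components, were the highest in ssy1KO at 0.18 and 0.14, and DOT6 and TOR2 in ssy1T9 at 0.20 and 0.17, none of them called.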

How the data were processed

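The authors deposited 1 log ratio per spot for each of 6 arrays, taken here as log2, with 0 missing values and medians away from 0. No label or header states the log base or the direction, and every fold rests on that base. Per the labels, RNA was labelled with the Genisphere 3DNA System. How the authors scanned, background-corrected or normalized the arrays is not given in these sources. The platform annotation names 1 gene for 6116 of 7744 rows, several for 0 and none for 1628. Symbols were updated by gene identifier to R64 names, which matched 6111 rows, and rows of one gene were averaged, giving 5711 genes.

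The median gene of an array was subtracted from its values. All 6 arrays entered 1 limma fit (version 3.58.1, R 4.3.3) with terms for the dye and for each mutant relative to wt, leaving 3 residual degrees of freedom to which moderation added 20.7. Tests were two-sided, with Benjamini-Hochberg adjustment over all genes at 0.05. The A minus B differences were fitted alike over 86 pairs. The number of arrays limits the precision. Steps were tested on simulated data. Members and lists were chosen with earlier results of these data known. Genes whose array values are given are the stalk genes RPP0 to RPP2B, the single-copy genes RPL3, RPL5, RPL10, RPL25, RPL28, RPL30, RPL38 and RPL39, the RPL22, RPL40 and RPL41 pairs, the 5 lowest and 5 highest fitted values per mutant, and pairs that passed. Of each other list the 2 lowest and 2 highest per mutant are named. Promoter and protein sequences were not used here, nor the promoter motifs that had been planned.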

Additional observations from a re-analysis of the deposited data

How the results depend on the processing

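No alternative called any large subunit gene higher, and the medians stayed below 0 in all of them. Of the 80 genes, 57 were called lower in ssy1KO (10.5% of all genes). The count was 13 with no centring (2.71%), 10 with no dye intercept (5.01%) and 17 with each strain pair from its own arrays (5.69%). It was 2 in the test against a 1.2-fold change (1.4%), and 14 to 54 with one array left out. The 14, without KO/wt array 1, stand beside 4.47% of all genes called lower. In ssy1T9, 59 of the 80 were called lower (12.1% of all genes). The count there was 21 with no centring (3.08%), 23 with no dye intercept (6.01%) and 8 against 1.2-fold (1.84%). It was 24 to 64 with one array left out. The 24, without T9/wt array 2, stand beside 7.55% of all genes called lower. The median in ssy1T9 was -0.17 with no centring and between -0.38 and -0.23 with one array left out. Between the mutants 0 to 1 gene passed with one array left out. In ssy1T9, of the A/B pairs, 0 passed from the own arrays, 4 with robust moderation and 1 to 3 with one array left out. RPP1, counted after the data were seen, made 58 and 60 genes lower. Of 31 calls for the 25 named genes, 8 held under all 13 alternatives, which leave out the test against a 1.2-fold change. In that test no peptidyl transferase gene passed in either mutant and no tunnel exit gene in ssy1KO. The 8 include RPL28 in both mutants, RPL10 in ssy1T9 and RPL38 in ssy1KO. Values that changed sign with no centring were, in ssy1KO, 0.0667 for RPL25, 0.15 for RPL22B, 0.0783 for RPL40B, 0.10 for RPL43A and 0.0667 for RPL7A, and in ssy1T9 0.0583 for RPP0, 0.0217 for RPL3, 0.0783 for RPL25, 0.11 for RPL22B, 0.11 for RPL40A, 0.11 for RPL40B, 0.15 for RPL43A, 0.0183 for RPL7A and 0.14 for RPL34B. RPL22B in ssy1KO was 0.01 centred on all rows, 0.0058 on scaled arrays and 0.05 from its own arrays, and RPL43A in ssy1T9 0.03 from its own arrays. With one array left out the ranges of those that changed sign were -0.17 to 0.0017 for RPL25 in ssy1KO, -0.13 to 0.0217 for RPL43A in ssy1KO, -0.12 to 0.0478 for RPL43A in ssy1T9, -0.11 to 0.06 for RPL34B in ssy1T9, -0.0867 to 0.0261 for RPL22B in ssy1KO, -0.15 to 0.0017 for RPL40A in ssy1T9, -0.17 to 0.0106 for RPL40B in ssy1T9, -0.0983 to 0.0072 for RPL22B in ssy1T9, -0.41 to 0.0133 for RPP1B in ssy1T9. Of all these values, RPP1B in ssy1T9 alone was called in the full fit. The labels give no replicate numbers, so no paired fit was made. The cause of these changes was not tested.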
